A study of Mus musculus with 12 samples.

Results

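In poly(A)-selected RNA from mouse hearts, 8 genes were followed that encode 3 secreted CCN proteins and 5 components of the YAP and TEAD pathway. They were selected by symbol from 54146 annotated gene records per library, and all 8 of 8 (Ccn1, Ccn2, Ccn5, Yap1, Wwtr1, Tead1, Lats2 and Amotl2) matched 1 record each and passed the filter on low counts. TAC, transverse aortic constriction, narrows the aorta and raises the pressure against which the left ventricle pumps; sham surgery leaves it unconstricted. The 12 libraries were made 6 weeks after surgery and form 3 groups of 4: TAC in mice with a knockout of Nron, a long noncoding RNA known as a repressor of the transcription factor NFAT (TAC KO); TAC in wild-type mice (TAC WT); and sham surgery in wild-type mice (Sham WT). Strain, sex, age, the design of the knockout allele and the number of animals behind a library are not stated in the labels, so p-values measure only the spread between these libraries. Sham-operated knockout hearts were not analysed here, so a difference of TAC KO from TAC WT cannot be told apart from one that the knockout has without TAC.

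CCN proteins are secreted into the extracellular matrix, where they bind integrins, proteoglycans and growth factors. CCN2, also called connective tissue growth factor, is widely used as a readout of fibrotic signalling in the heart, and CCN1 (CYR61) is an angiogenic and adhesive member of the family. CCN5 lacks the C-terminal domain of the other members and has been described in mouse hearts as opposing the action of CCN2. YAP and TAZ, encoded by Yap1 and Wwtr1, are transcriptional coactivators with no DNA-binding domain of their own. They bind DNA through TEAD factors, and Ccn1 and Ccn2 are among their best known targets. Kinases of the Hippo pathway, LATS1 and LATS2, phosphorylate YAP and TAZ and so keep them out of the nucleus, and angiomotins such as AMOTL2 bind and retain them in the cytoplasm. Lats2 and Amotl2 are themselves known targets of YAP. Because YAP activity is set largely by phosphorylation and location, the mRNA levels given here do not measure it.

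Total counts were 28565856 to 35777820 per library in TAC KO, 26288519 to 35945770 in TAC WT and 27596898 to 35491024 in Sham WT. A count of 0 in a library allows a level of up to 0.082 to 0.11 CPM (counts scaled to the library's total), for counting error only. Nron had 0 counts in all 12 libraries under both of its annotated records, so it does not check the genotype labels. Log2 levels of genes of the highest GC quintile, minus those of the lowest, were 0.09 to 0.38 in TAC KO, -0.13 to -0.06 in TAC WT and -0.11 to -0.04 in Sham WT. TAC KO 1 stood apart with the value of 0.38, against 0.09 to 0.12 in the other TAC KO libraries. The same difference between the quintiles of longest and shortest transcripts was -0.21 to -0.12 in TAC KO, -0.03 to 0.16 in TAC WT and 0.02 to 0.13 in Sham WT. Called differences of the 8 genes that involve TAC KO are therefore also given leaving TAC KO 1 out, and after correction for the GC and length trends together. The calls in TAC KO of the other pathway genes named, apart from Map4k1, held under both. Cardiomyocyte markers summed to 60973 to 66169 CPM in TAC KO, 61072 to 64994.5 CPM in TAC WT and 66175.5 to 75463 CPM in Sham WT, while atrial markers summed to 1.704 to 2.65 CPM in TAC KO, 2.02 to 2.78 CPM in TAC WT and 2.18 to 2.93 CPM in Sham WT.

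Promoter sequence is shown for the members whose windows hold the motif through which YAP and TAZ reach DNA. RefSeq windows from 250 bases before to 50 bases after a transcript start were searched on both strands for GGAATG or its complement CATTCC, the core of the MCAT element bound by TEAD factors. Among the members, 5 genes had 7 windows (Ccn1, Yap1, Wwtr1, Lats2 and Amotl2), and 6 of these 7 windows and 5 of these 5 genes held the motif at least once. The Wwtr1 windows overlap each other and hold the same match, so they are not separate sites. Over all promoters of the same length, 14.7% of 32851 windows and 16.6% of 27025 genes held it. A match describes the letters alone and not binding. The windows searched held none for Ccn2, Ccn5 or Tead1, so the motif was not sought in these genes. The whole window of Ccn1, on the minus strand at chr3:145649936-145650235 (GRCm38.p6), is printed first, with the motif in capitals starting 103 bases before the transcript start. Stretches of 60 bases around the motif follow for Wwtr1 (chr3:57576014-57576073, minus strand, position -136), Yap1 (chr9:8004705-8004764, minus strand, position -141), Amotl2 (chr9:102717712-102717771, plus strand, position -65) and Lats2 (chr14:57746087-57746146, minus strand, position 4), where positions are those of the first motif base relative to the start. The second Lats2 window held no match.
Ccn1: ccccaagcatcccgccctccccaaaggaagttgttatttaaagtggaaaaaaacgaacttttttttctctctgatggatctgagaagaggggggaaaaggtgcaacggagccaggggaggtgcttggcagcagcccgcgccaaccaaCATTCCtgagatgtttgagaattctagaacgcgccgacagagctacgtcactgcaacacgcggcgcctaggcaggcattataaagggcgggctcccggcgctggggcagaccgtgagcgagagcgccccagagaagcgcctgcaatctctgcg
Wwtr1: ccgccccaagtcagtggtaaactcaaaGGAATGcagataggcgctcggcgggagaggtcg
Yap1: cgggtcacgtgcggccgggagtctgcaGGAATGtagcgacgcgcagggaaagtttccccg
Amotl2: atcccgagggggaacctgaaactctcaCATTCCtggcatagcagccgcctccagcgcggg
Lats2: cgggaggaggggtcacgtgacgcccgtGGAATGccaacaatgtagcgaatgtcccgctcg
Relative to these RefSeq starts, Ccn1, Amotl2 and both coactivator genes carry the motif upstream, and in Lats2 it lies just downstream. The starts used for Amotl2 and Lats2 lie inside the annotated spans of these genes given below.

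In CPM, Ccn2 showed the widest range of the 8 genes across the 3 groups. Ccn2 (ENSMUSG00000019997.11, chromosome 10, 24595442 to 24598683, plus strand, GRCm38) had 94.99, 279, 196 and 200 CPM in TAC KO libraries 1 to 4, 680, 433, 588 and 716 CPM in TAC WT, and 95.8, 107, 91.0 and 80.0 CPM in Sham WT. Every TAC WT library was above every other library. TAC KO 1 lay inside the Sham WT range, and the other TAC KO libraries lay between the wild-type groups. Group means were 192 ± 75.3 CPM in TAC KO, 604 ± 126 CPM in TAC WT and 93.3 ± 11.02 CPM in Sham WT (SD, n = 4 each). An annotated transcript on the other strand, Gm15270, overlaps exons of Ccn2, and it had 108 to 123 counts in TAC KO, 74 to 118 in TAC WT and 92 to 107 in Sham WT, far below the 2180 to 24855 counts of Ccn2. The strand setting of the counting is not given in the sources used here.

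Ccn1 (ENSMUSG00000028195.4, chromosome 3, 145646976 to 145649981, minus strand) spanned a narrower range of CPM than Ccn2. It had 144, 168, 142 and 126 CPM in TAC KO, 207, 179, 277 and 195 CPM in TAC WT, and 92.3, 175, 113 and 87.6 CPM in Sham WT. All 4 TAC WT libraries were above all others, but Sham WT 2, at 175 CPM, exceeded every TAC KO library and came within a few CPM of the lowest TAC WT library.

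Ccn5 (ENSMUSG00000027656.7, chromosome 2, 163820861 to 163833146, plus strand) was the least abundant of the 3 CCN genes and had a different order of groups. It had 19.5, 19.8, 11.97 and 7.56 CPM in TAC KO, 11.1, 10.2, 7.44 and 7.53 CPM in TAC WT, and 1.99, 5.36, 4.69 and 4.18 CPM in Sham WT. Every TAC KO and TAC WT library exceeded every Sham WT library. Within TAC, the 4 TAC KO libraries spread from the bottom of the TAC WT range to above its top. These levels rest on 264 to 615 counts in TAC KO, 205 to 406 in TAC WT and 67 to 187 in Sham WT.

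Both coactivator genes varied little, and each was lowest on average in TAC KO. Yap1 (ENSMUSG00000053110.13, chromosome 9, 7931999 to 8004596, minus strand) had 90.5, 102, 103 and 94.9 CPM in TAC KO, 117, 128, 112 and 124 CPM in TAC WT, and 100, 110, 112 and 116 CPM in Sham WT. Wwtr1 (ENSMUSG00000027803.14, chromosome 3, 57455649 to 57575910, minus strand) had 67.8, 81.1, 79.8 and 81.6 CPM in TAC KO, 107, 97.8, 108 and 102 CPM in TAC WT, and 81.1, 83.1, 91.5 and 92.3 CPM in Sham WT. For Wwtr1 the TAC WT libraries stood above all 8 others, and the TAC KO and Sham WT ranges overlapped narrowly. Tead1 (ENSMUSG00000055320.17, chromosome 7, 112679318 to 112906807, plus strand), the DNA-binding partner, had 150, 175, 188 and 190 CPM in TAC KO, 223, 217, 177 and 188 CPM in TAC WT, and 159, 170, 167 and 167 CPM in Sham WT. Its TAC KO libraries overlapped both other groups.

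Of the 2 inhibitors of YAP and TAZ, Lats2 was lower in TAC KO than in TAC WT and Amotl2 was not called in any comparison. Lats2 (ENSMUSG00000021959.16, chromosome 14, 57689662 to 57758388, minus strand) had 23.9, 23.8, 28.6 and 28.6 CPM in TAC KO, 33.3, 31.8, 32.6 and 33.6 CPM in TAC WT, and 29.0, 27.6, 30.5 and 33.6 CPM in Sham WT. The TAC WT libraries lay within a range of 31.8 to 33.6 CPM, above all TAC KO libraries. Another annotated gene on the same strand, Gm49361, shares exons with Lats2 and had 0 counts in all libraries, so reads in the shared exons may have been left unassigned. Amotl2 (ENSMUSG00000032531.15, chromosome 9, 102716672 to 102733418, plus strand) had 57.9, 77.5, 76.3 and 77.9 CPM in TAC KO, 84.2, 80.9, 64.7 and 78.5 CPM in TAC WT, and 85.8, 85.6, 75.4 and 77.2 CPM in Sham WT. These 3 groups overlapped, with TAC KO 1 the lowest library.

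**Figure D1:**
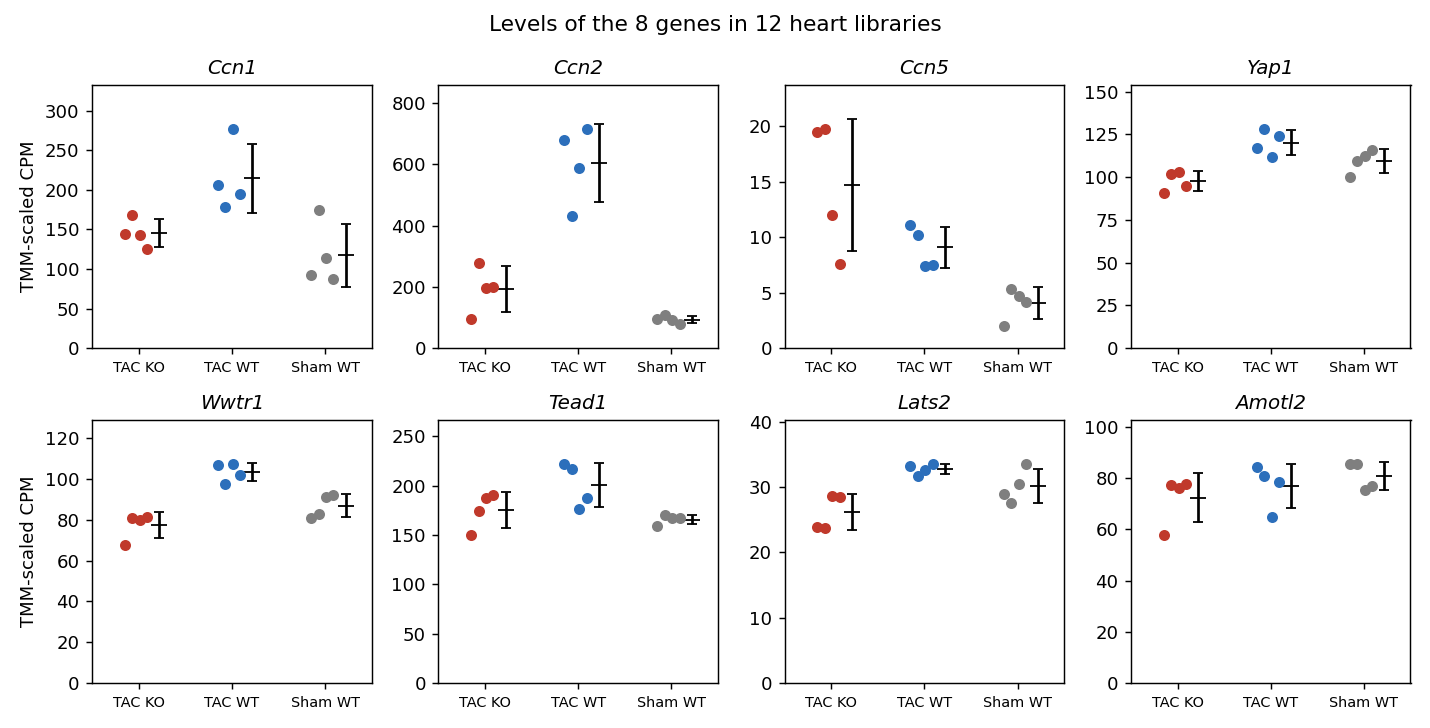
Level of each of the 8 genes in every library, in CPM on a linear axis starting at 0, with groups from left to right TAC KO, TAC WT and Sham WT (4 points each) and the group mean ± SD beside them. Ccn2 averaged 192 CPM in TAC KO, 604 CPM in TAC WT and 93.3 CPM in Sham WT, while Amotl2 overlapped in all 3 groups.

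Levels were compared between genes as CPM per kilobase of exon. Ccn1 ranked first in TAC KO at 71.9 ± 8.70 CPM per kilobase, followed by Ccn2 at 67.3 ± 26.3, and the ranges of these neighbours overlapped. In TAC WT, Ccn2 ranked first at 211 ± 44.2 CPM per kilobase and Ccn1 second at 106 ± 21.5, with no overlap. In Sham WT, Ccn1 ranked first at 58.0 ± 19.9 CPM per kilobase and Ccn2 second at 32.6 ± 3.85, again with no overlap (SD, n = 4 each). Wwtr1 came next in every group, clear of its neighbours, at 16.2 ± 1.37 CPM per kilobase in TAC KO, 21.7 ± 0.967 in TAC WT and 18.2 ± 1.196 in Sham WT. Tead1, Yap1 and Amotl2 followed at group means of 10.6 to 14.8 CPM per kilobase, and their neighbouring ranges overlapped in every group, as did those of Yap1 and Ccn5 in TAC KO. Ccn5 and Lats2 closed the order, at 7.64 ± 3.11 and 3.76 ± 0.396 CPM per kilobase in TAC KO, 4.72 ± 0.970 and 4.71 ± 0.113 in TAC WT, and 2.11 ± 0.757 and 4.33 ± 0.374 in Sham WT. On these values Ccn5 was below Lats2 in every Sham WT library and overlapped it in both TAC groups. Lats2 was divided by its full exon length, although reads in the exons it shares with Gm49361 may have been left unassigned. Its level per kilobase may therefore be too low, and the effect on its order relative to Ccn5 was not tested.

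The level of Ccn2 relative to Ccn5, its described antagonist, was lowest on average in TAC KO, with a range that overlapped that of Sham WT. Per kilobase of exon, Ccn2 exceeded Ccn5 by 3.27, 9.48, 11.01 and 17.8 times in TAC KO libraries 1 to 4, by 41.2, 28.5, 53.2 and 63.9 times in TAC WT, and by 32.4, 13.4, 13.1 and 12.9 times in Sham WT. All 4 TAC KO ratios were below all 4 TAC WT ratios, but TAC KO 4, at 17.8, was above Sham WT 2, 3 and 4. Sham WT 1, which had the lowest Ccn5 level (67 counts), overlapped the TAC WT range and raised the Sham WT mean. Means of this ratio were 10.4 ± 5.96 in TAC KO, 46.7 ± 15.3 in TAC WT and 17.9 ± 9.64 in Sham WT (SD, n = 4 each). The ratio of Ccn2 to Ccn1 averaged 0.932 ± 0.323 in TAC KO, 2.03 ± 0.512 in TAC WT and 0.593 ± 0.129 in Sham WT. These ratios were formed after the levels were known and are given as a description with no test. They were not corrected for the GC and length trends.

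**Figure D2:**
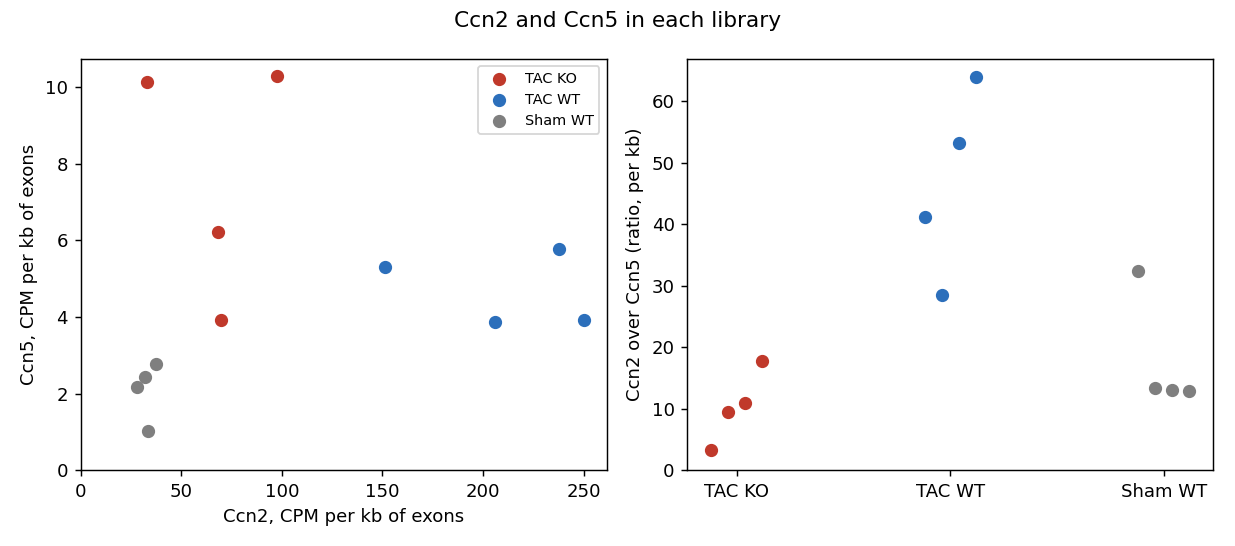
Left, Ccn5 against Ccn2 in each of the 12 libraries, both in CPM per kilobase of exon; right, the ratio of Ccn2 to Ccn5 per library on a linear axis from 0, with TAC KO, TAC WT and Sham WT from left to right (4 points each). TAC KO ratios ran from 3.27 to 17.8, TAC WT ratios from 28.5 to 63.9 and Sham WT ratios from 12.9 to 32.4.

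TAC WT set against Sham WT addresses pressure overload in wild-type hearts. Of the 8 members, 5 were higher in TAC WT and 0 were lower: the 3 CCN genes, Wwtr1 and Tead1. Of all 15477 genes tested, 19.7% were called in this comparison at an adjusted p under 0.05, and 9.67% of all genes tested were called higher. The median log2 difference was 0.26 over the members and -0.00045 over all tested genes. Groups did not overlap for any of the 5 called members, as was the case for 24.7% of all tested genes in either direction.

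Ccn2 had a log2 difference of 2.69 ± 0.25 (SE; 95% interval 2.16 to 3.23), 6.47-fold, with an adjusted p of 1.194e-05 by edgeR's quasi-likelihood test. Ccn5 differed by 1.16 ± 0.31 (adjusted p = 0.01662) and Ccn1 by 0.87 ± 0.19 (adjusted p = 0.00533). The smaller differences of Tead1, 0.28 ± 0.09 (adjusted p = 0.03381), and Wwtr1, 0.25 ± 0.07 (adjusted p = 0.02155), passed the threshold. Yap1 at 0.14 (95% interval -0.01 to 0.28), Lats2 at 0.12 (-0.05 to 0.29) and Amotl2 at -0.07 (-0.29 to 0.14) did not pass it. Ccn1 and Ccn2 passed in all 21 alternative settings. Without TAC WT 1, Ccn5 had an adjusted p of 0.05241. Wwtr1 missed the threshold without Sham WT 1, Sham WT 2 or TAC WT 1 (adjusted p of 0.06237, 0.06037 and 0.05846). Tead1 missed it without TAC WT 1, TAC WT 2 or any 1 Sham WT library (adjusted p of 0.05502 to 0.1083). The members called then numbered 2 without TAC WT 1 and 3 without Sham WT 1 or Sham WT 2.

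Fibroblast markers summed to 1587 to 1945.5 CPM in TAC WT and 1473 to 1698.7 CPM in Sham WT, with 3 of 7 markers higher and 0 lower. Macrophage markers summed to 105 to 151 CPM in TAC WT and 123 to 137 CPM in Sham WT, and 0 of 6 were called. Endocardial markers summed to 29.9 to 46.2 CPM in TAC WT and 21.4 to 28.01 CPM in Sham WT, with 1 of 3 higher (Npr3) and 0 lower. The cardiomyocyte sums given above did not overlap between TAC WT and Sham WT, and 2 of 6 of these markers (Myh6 and Tnni3) were lower. Of the smooth muscle and pericyte markers, 1 of 7 was lower and 0 higher, and 0 of 6 endothelial markers were called. Set beside these marker counts, 19.7% of all genes tested were called in this comparison, 9.67% higher and the rest lower. In bulk RNA, more (or fewer) cells of a type and more (or less) RNA per cell cannot be told apart, and the part of these markers in the member differences was not tested.

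The 6 lists of related genes were counted in the same way for TAC WT against Sham WT. In the CCN family list, 3 of 5 tested genes were higher and 0 lower. Ccn3 differed by 0.10 and Ccn4 by 0.08, without a call, and Ccn6 was not tested at 2 to 12 counts per library. Among 8 tested YAP, TAZ, TEAD and VGLL factors, 2 were higher (Wwtr1 and Tead1) and 0 lower, with a median of 0.16. That count fell to 0 without Sham WT 1, Sham WT 2 or TAC WT 1 and to 1 without Sham WT 3, Sham WT 4 or TAC WT 2. With 1 surrogate variable, 0 of these genes were higher and 1 was lower. Beside the 19.7% called among all genes tested, 5 of 23 tested genes of the Hippo kinase cascade and upstream regulators were higher and 0 lower. Their median was 0.04. Without Sham WT 1, 3 were called, and without TAC WT 1, 2 were called. Slmap, which encodes a subunit of the STRIPAK phosphatase complex that acts on Hippo kinases, differed by 0.45 (adjusted p = 0.00447), and Wwc2, a scaffold that activates LATS kinases, by 0.25 (adjusted p = 0.01237). Of 3 angiomotin genes, 1 was called: Amot was higher by 1.26 (adjusted p = 0.004576).

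Of 21 tested genes of a YAP target list, recalled from a published signature of 22 genes and not checked against its source, 8 were higher and 2 lower, with a median of 0.12. The list includes Ccn1, Ccn2, Lats2 and Amotl2. Tgfb2, a TGF-beta ligand, was higher by 2.17 (adjusted p = 4.235e-06) and Ankrd1, a stretch-responsive nuclear and sarcomeric protein of cardiomyocytes, by 2.55 (adjusted p = 8.1e-06). F3, the initiator of blood coagulation known as tissue factor, was lower at -0.61 (adjusted p = 0.002406). Without Sham WT 2, 6 genes of this list were called. Of 16 receptors and binding partners of CCN proteins, 6 were higher and 0 lower, with a median of 0.26, among them the fibronectin receptor subunit Itga5 (0.73, adjusted p = 0.001061) and the angiogenic factor Vegfa (0.47, adjusted p = 0.007515).

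Set against TAC WT, the TAC KO hearts had the same surgery and a different genotype. Of the 8 members, 5 were lower in TAC KO and 0 were higher: Ccn1, Ccn2, Yap1, Wwtr1 and Lats2. Of all genes tested, 33.0% were called in this comparison, 17.3% lower and 15.7% higher. The median log2 difference was -0.31 over the members and -0.0021 over all tested genes. Groups did not overlap for any of the 5 called members, as in 28.5% of all tested genes in either direction and 15.2% in the lower direction.

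Ccn2 was lower in TAC KO by a log2 difference of -1.65 ± 0.24 (SE; 95% interval -2.17 to -1.13; adjusted p = 0.0002932 by edgeR). Leaving out TAC KO 1 gave -1.43, correcting for the GC and length trends gave -1.703, and the call held in all 21 alternatives. Ccn1 differed by -0.56 ± 0.19 (95% interval -0.97 to -0.15; adjusted p = 0.03528). It missed the threshold when any of 5 libraries was left out, with an adjusted p of 0.07445 for TAC KO 1, 0.06111 for TAC KO 3, 0.09035 for TAC KO 4, 0.06092 for TAC WT 1 and 0.1116 for TAC WT 3. It also missed it with DESeq2 (adjusted p = 0.0668) and limma voom (0.052). Corrected for the trends, Ccn1 differed by -0.67 (adjusted p = 0.01647). Ccn5 pointed the other way at 0.69 ± 0.29 (95% interval 0.07 to 1.31) but did not pass the threshold (adjusted p = 0.08227), and its groups overlapped. Without TAC KO 1, Ccn5 differed by 0.52 (adjusted p = 0.2292). Without TAC KO 4, Ccn5 differed by 0.90 (adjusted p = 0.01812), and with no filter on low counts its adjusted p was 0.01266. It differed by 0.51 after the correction (adjusted p = 0.2072), by 0.47 with 1 surrogate variable (0.2243) and by 0.30 with limma voom (0.4757).

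Wwtr1 was lower in TAC KO at -0.42 ± 0.07 (adjusted p = 0.0007292), Lats2 at -0.32 ± 0.08 (adjusted p = 0.006933) and Yap1 at -0.30 ± 0.07 (adjusted p = 0.004089). All 3 calls held in all 21 alternatives. Without TAC KO 1 the differences were -0.36 for Wwtr1, -0.28 for Lats2 and -0.27 for Yap1. After correction for the trends they were -0.31, -0.28 and -0.15, the last with an adjusted p of 0.0472. The GC trend was higher and the length trend lower in every TAC KO library than in every TAC WT library, and the correction for both moved Yap1 most of these 3 genes. Tead1 differed by -0.19 (95% interval -0.38 to -0.01; adjusted p = 0.09873) and by -0.02 after the correction. Without TAC WT 3, Tead1 had an adjusted p of 0.03769. Amotl2 differed by -0.09 (95% interval -0.30 to 0.13; adjusted p = 0.5251), with a value of 0.0021 without TAC KO 1.

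**Figure D3:**
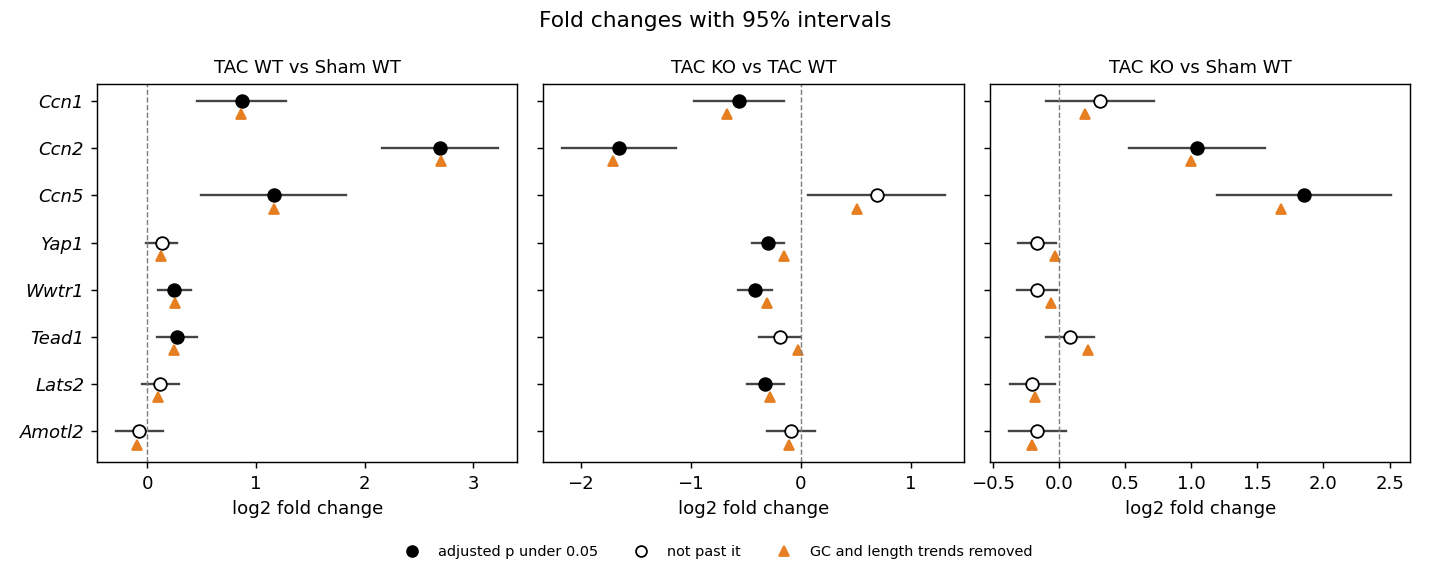
Log2 difference of each of the 8 genes in the 3 comparisons, with 95% intervals from the edgeR fit; filled circles passed an adjusted p under 0.05, open circles did not, and triangles give the value with trends over GC content and length removed. Ccn2 differed by -1.65 in TAC KO against TAC WT, by 2.69 in TAC WT against Sham WT and by 1.04 in TAC KO against Sham WT, while Ccn5 was positive in all 3 comparisons.

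Markers of other cell types also differed between TAC KO and TAC WT. Beside the counts below, 15.7% of all genes tested were higher and 17.3% lower. Endothelial markers summed to 882 to 1007 CPM in TAC KO and 1036 to 1281 CPM in TAC WT, with 3 of 6 lower and 0 higher. Macrophage markers summed to 172 to 214 CPM in TAC KO and 105 to 151 CPM in TAC WT, with 5 of 6 higher and 0 lower. Fibroblast markers summed to 1896 to 2291 CPM in TAC KO and 1587 to 1945.5 CPM in TAC WT, with 2 of 7 higher and 0 lower. After the GC and length correction, Tcf21 and the most abundant marker, Gsn, lost their calls (adjusted p = 0.08032 and 0.08442). Dcn was then called higher at 0.46 (adjusted p = 0.004095). Smooth muscle and pericyte markers summed to 1092 to 1267 CPM in TAC KO and 1089 to 1489 CPM in TAC WT, with 3 of 7 higher and 1 lower. Of these, Kcnj8 (higher) and Rgs5 (lower) lost their calls after the correction (adjusted p = 0.07171 and 0.09435). Endocardial markers summed to 25.2 to 32.4 CPM in TAC KO and 29.9 to 46.2 CPM in TAC WT, with 1 of 3 higher and 1 lower. Epicardial and mesothelial markers summed to 6.05 to 7.70 CPM in TAC KO and 7.31 to 12.4 CPM in TAC WT. Of 3 tested, Wt1, the most abundant, was lower at -0.98 and Msln was higher at 1.91. Upk3b differed by 1.44, without a call. Msln averaged only 0.751 CPM in TAC KO and 0.192 CPM in TAC WT. Adipocyte markers summed to 0.228 to 2.16 CPM in TAC KO and 0.400 to 0.765 CPM in TAC WT, and red blood cell markers to 365 to 486 CPM in TAC KO and 295 to 665 CPM in TAC WT. Of the cardiomyocyte markers, 1 of 6 was higher (Tnni3 at 0.31) and 0 lower. Tnni3 lost its call after the correction (adjusted p = 0.08631). No marker was at 0 in all libraries of a group. The part of any of these in the differences of Ccn1, Ccn2, Yap1, Wwtr1 and Lats2 was not tested.

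Across the pathway lists, calls in TAC KO against TAC WT were mostly in the lower direction. Of all genes tested, 17.3% were lower and 15.7% higher. Some genes, such as Ccn1, Ccn2, Lats2 and Ptpn14, are counted in more than a single list. The lists also hold all the members and were chosen with earlier results known. Their counts are therefore not separate from those of the members. The counts of the CCN family, YAP, TAZ, TEAD and VGLL, and angiomotin lists were the same after the GC and length correction. In the CCN family list, 2 of 5 tested genes were lower and 0 higher, and 1 was called on leaving out TAC WT 1, TAC WT 3, TAC KO 1 or, likewise, TAC KO 3. Ccn3 differed by 0.06 and Ccn4 by 0.47, without a call. Of 8 tested YAP, TAZ, TEAD and VGLL factors, 4 were lower and 0 higher, with a median of -0.27. Vgll4, which competes with YAP for TEAD, was among them at -0.51 (adjusted p = 0.0007508). Of 23 tested genes of the Hippo kinase cascade and upstream regulators, 13 were lower and 1 higher, with a median of -0.29. After the GC and length correction, 9 were lower and 0 higher. Wwc2 differed by -0.48 (adjusted p = 0.0001769), the kinase gene Taok3 by -0.52 (adjusted p = 0.0004577) and Slmap by -0.57 (adjusted p = 0.0007406). Map4k1 was the 1 gene higher, at 0.53 (adjusted p = 0.01715), and is named after its value was seen. Among the angiomotins, Amotl1 was lower at -0.51 (adjusted p = 0.0005617), and Amot and Amotl2 were not called.

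Of the 21 tested genes of the YAP target list, 8 were lower and 2 higher in TAC KO than in TAC WT, with a median of -0.20. After the GC and length correction, 7 were lower and 2 higher. Over all genes tested, 17.3% were lower and 15.7% higher without that correction. Tgfb2 differed by -1.85 (adjusted p = 1.289e-05), Ankrd1 by -1.41 (adjusted p = 0.0003768) and Crim1, a transmembrane protein that binds growth factors, by -0.37 (adjusted p = 0.006675). Gadd45a, a stress-responsive growth-arrest gene, was higher by 1.73 (adjusted p = 7.456e-05). Of the 16 receptors and binding partners of CCN proteins, 7 were lower and 0 higher, with a median of -0.20. With the correction, 7 were lower and 1 higher. Vegfa differed by -0.83 (adjusted p = 0.0001471), the heparan sulfate proteoglycan gene Sdc4 by -0.71 (adjusted p = 0.00119) and the integrin subunit gene Itgb1 by -0.48 (adjusted p = 0.0002102).

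**Figure D4:**
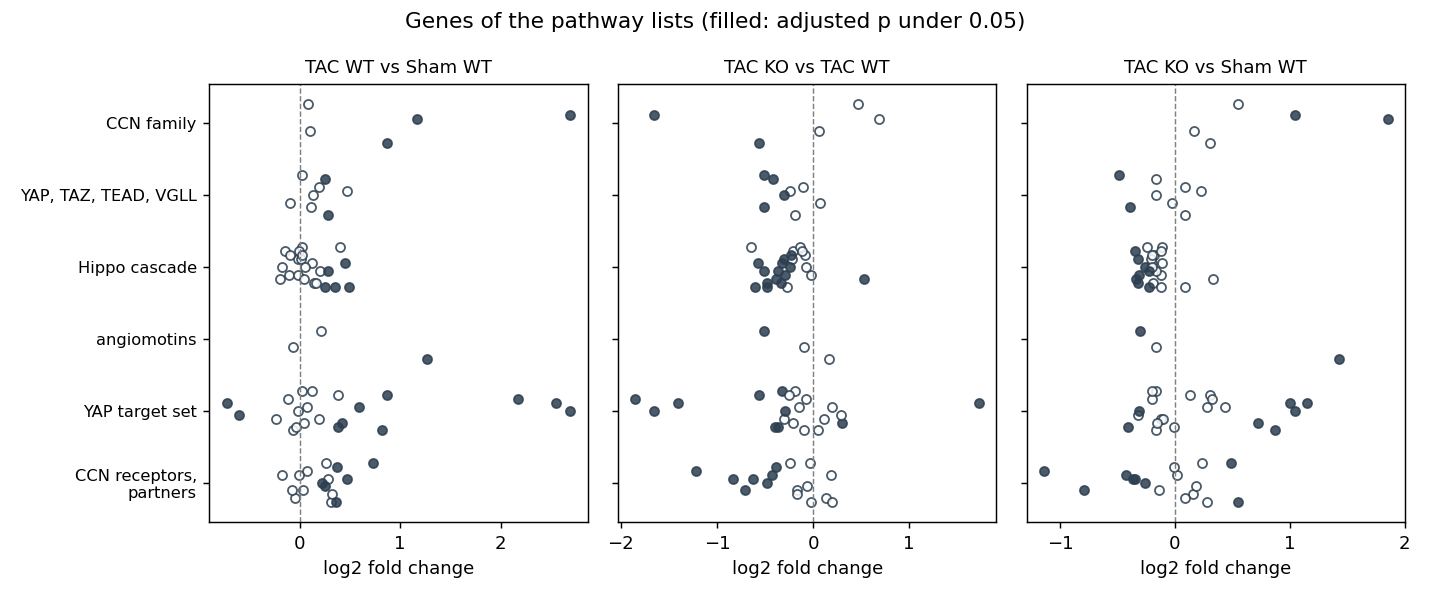
Log2 difference of every tested gene of the 6 pathway lists (rows) in the 3 comparisons (panels, each with its own axis range); each point is a gene, filled where it passed an adjusted p under 0.05 in edgeR. In TAC KO against TAC WT, 13 of 23 genes of the Hippo cascade and upstream regulators were lower and 1 higher. After the GC and length correction, 9 of them were lower and 0 higher. Without it, 17.3% of all genes tested were lower and 15.7% higher.

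TAC KO was also set against Sham WT. Of the 8 members, 2 (Ccn2 and Ccn5) were higher in TAC KO and 0 were lower. Of all tested genes, 27.6% were called in this comparison, 12.8% higher and 14.8% lower. The median log2 difference was -0.04 over the members and 0.00031 over all tested genes. Each group served in 2 of the 3 comparisons, so they share libraries. The TAC WT libraries stand on opposite sides of the first and second, so a high TAC WT level alone gives opposite signs in them.

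Ccn5 was higher in TAC KO by 1.85 ± 0.31 (95% interval 1.19 to 2.51; adjusted p = 0.0007919), with groups that did not overlap, as in 30.7% of all tested genes in either direction and 14.3% in the higher direction. Without TAC KO 1 it differed by 1.69, and after the GC and length correction by 1.68. Ccn2 was higher by 1.04 ± 0.24 (95% interval 0.53 to 1.56; adjusted p = 0.005925), but TAC KO 1, at 94.99 CPM, lay inside the Sham WT range. Without that library Ccn2 differed by 1.28 (adjusted p = 0.0003438), and after the correction by 1.001 (adjusted p = 0.009449). Ccn1 differed by 0.31 (95% interval -0.10 to 0.72; adjusted p = 0.2432), and by 0.58 (adjusted p = 0.01334) without Sham WT 2, its highest Sham WT library. Yap1 at -0.16 (95% interval -0.31 to -0.02), Wwtr1 at -0.17 (-0.32 to -0.01), Lats2 at -0.20 (-0.37 to -0.03), Amotl2 at -0.16 (-0.38 to 0.05) and Tead1 at 0.09 (-0.10 to 0.27) did not pass the threshold. Without TAC KO 3, Lats2 had an adjusted p of 0.04923. After the GC and length correction, Tead1 was higher by 0.22 (adjusted p = 0.04268) and Yap1 differed by -0.03.

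Fibroblast markers summed to 1896 to 2291 CPM in TAC KO and 1473 to 1698.7 CPM in Sham WT, with 5 of 7 higher and 0 lower. Macrophage markers summed to 172 to 214 CPM in TAC KO and 123 to 137 CPM in Sham WT, with 5 of 6 higher. Endothelial markers summed to 882 to 1007 CPM in TAC KO and 1032 to 1223 CPM in Sham WT, with 3 of 6 lower. Smooth muscle and pericyte markers summed to 1092 to 1267 CPM in TAC KO and 1299 to 1478 CPM in Sham WT, with 2 of 7 higher and 2 lower. Epicardial and mesothelial markers summed to 6.05 to 7.70 CPM in TAC KO and 8.16 to 10.6 CPM in Sham WT. Of these, 1 of 3 tested was lower: Wt1, the most abundant. Msln at 0.98 and Upk3b at 0.76 pointed the other way, without a call. Endocardial markers summed to 25.2 to 32.4 CPM in TAC KO and 21.4 to 28.01 CPM in Sham WT, with 1 of 3 higher (Plvap) and 0 lower. Of the cardiomyocyte markers, 1 of 6 was higher and 3 were lower. Over all genes tested, 12.8% were higher and 14.8% lower in this comparison. After the GC and length correction, Gsn, Csf1r, Rgs5, Plvap, Mb, Tnnt2 and Ryr2 lost their calls. Pdgfra (higher) and Tnni3 (lower) then gained a call. The part of these markers in the differences of Ccn2 and Ccn5 was not tested.

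In the pathway lists, TAC KO against Sham WT gave 2 of 5 CCN genes higher and 0 lower. Beside these list counts, 12.8% of all genes tested were higher and 14.8% lower. Of 8 YAP, TAZ, TEAD and VGLL factors, 2 were lower and 0 higher, with Vgll4 at -0.39 (adjusted p = 0.004737), and 1 was called without TAC KO 2, Sham WT 3 or Sham WT 4. Of 23 genes of the Hippo cascade and upstream regulators, 8 were lower and 0 higher, with a median of -0.20. That count was 4 without TAC KO 2, 5 without TAC KO 4, 2 without Sham WT 3 or Sham WT 4, and 4 after the GC and length correction. Of 3 angiomotins, Amot was higher by 1.43 (adjusted p = 0.001835) and Amotl1 lower at -0.30 (adjusted p = 0.01599), and without Sham WT 3 or Sham WT 4 only Amot was called. The YAP target list had 5 of 21 genes higher and 2 lower, with Ankrd1 at 1.15 (adjusted p = 0.001553), Gadd45a at 0.999 (adjusted p = 0.002331) and Ptpn14, a phosphatase that restrains YAP, at -0.31 (adjusted p = 0.005665). Of the CCN receptors and partners, 2 of 16 were higher and 6 lower, with Sdc4 at -0.79 (adjusted p = 0.0007058) and the integrin subunit gene Itgb3 at -1.14 (adjusted p = 0.008886).

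For 5 members, the genes whose pattern over the 12 libraries was nearest were sought among 12004 tested genes, by the root mean square difference of log2 levels after centring each gene. Those nearest to Ccn2 were Syndig1 (0.314), Ankrd1 (0.322) and Rcan1 (0.346). Syndig1 averaged 0.576 CPM in TAC KO, 3.33 CPM in TAC WT and 0.141 CPM in Sham WT, and its Sham WT level lies below the 0.5 CPM added before the log, which shapes its distance. Ankrd1 averaged 2936 CPM in TAC KO, 7778 CPM in TAC WT and 1325 CPM in Sham WT, and Rcan1, a regulator of calcineurin, averaged 300.4 CPM in TAC KO, 615 CPM in TAC WT and 118 CPM in Sham WT. Casp12 (0.232), Myl1 (0.246) and Nudt18 (0.247) were nearest to Ccn1. Cdh4 (0.302), Amot (0.327) and Pamr1 (0.389) were nearest to Ccn5, and Cdh4 averaged 9.90 CPM in TAC KO, 6.46 CPM in TAC WT and 2.74 CPM in Sham WT. Lats2 was nearest to Ptprg (0.0436), Actr2 (0.0512) and Gng12 (0.0573). Amotl2 was nearest to Armc8 (0.057), Camk2d (0.0781) and Rab18 (0.083). Distances are smaller for genes that vary little, so those of Lats2 and Amotl2 are not comparable with those of the CCN genes.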

How the data were processed

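Poly(A) RNA was sequenced from 250 ng of total RNA per library, per the labels' protocols. The authors deposited whole-number counts per gene, and the submitters' processing notes name Trim Galore 0.5.0, STAR, featureCounts 1.6.4 and GRCm38. Of 54146 records, GENCODE vM21 named 54079. Libraries were numbered within a group in accession order, which pairs nothing. Genes passing edgeR's expression filter (15477) were fitted in all 12 libraries together with edgeR 4.0.16 (R 4.3.3; TMM scaling, quasi-likelihood F-test, Benjamini-Hochberg adjustment over all genes tested, called under 0.05). CPM used TMM-scaled totals. Intervals cover 95%.

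Alternatives were other scalings and filters, compared groups alone, DESeq2 1.42.0, limma 3.58.1 (voom), GC and length trends removed (splines with 5 degrees of freedom), 1 surrogate variable (sva 3.50.0) and each library left out. Members and lists were chosen with earlier results of these data known. Named from each list were examples from up to 6 called genes with the smallest p and a mean of at least 1 CPM. Likeness used log2(CPM + 0.5).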

Additional observations from a re-analysis of the deposited data

Results flagged for a closer look

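Over the 8 members and the other CCN genes, 33 groups of 4 libraries were examined for a library far from the rest, by the gap to its nearest neighbour divided by the group's range, and chance alone marks about 1 in 20 such groups. Wwtr1 was 67.8 CPM in TAC KO 1, against 79.8 CPM in the nearest TAC KO library, with a ratio of 0.863. Amotl2 was 57.9 CPM in TAC KO 1, against 76.3 CPM in the nearest TAC KO library, with a ratio of 0.920. This library also had the lowest Ccn2 level of its group, 94.99 CPM, and a GC trend of 0.38. The part of the GC trend in these levels was not tested.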

How the results depend on the processing

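The 24 member results, 8 genes in 3 comparisons, were recomputed under 21 alternatives, of which 12 left out 1 library each, and 12 of the 24 kept their call and direction in all of them. The members called in TAC WT against Sham WT numbered 5, and 3 with 1 surrogate variable, when Wwtr1 (adjusted p = 0.05711) and Tead1 (0.08131) missed the threshold. With 1 library left out the counts ran from 2 to 5 in TAC WT against Sham WT, from 4 to 5 in TAC KO against TAC WT and from 2 to 3 in TAC KO against Sham WT. Amotl2, called nowhere, changed sign to 0.0021 in TAC KO against TAC WT without TAC KO replicate 1 and to 0.0057 in TAC WT against Sham WT without TAC WT replicate 3, and with 1 library left out its values ran from -0.17 to 0.0021 and from -0.11 to 0.0057 in these comparisons. In TAC KO against Sham WT, Lats2 passed with 1 surrogate variable (adjusted p = 0.0396) and Yap1 with limma voom (0.03455). The cause of these changes was not tested. The YAP target list had 6 calls in TAC WT against Sham WT with 1 surrogate variable, and 11 in TAC KO against Sham WT with limma voom or 1 surrogate variable. The YAP, TAZ, TEAD and VGLL list had 1 call, lower, in TAC WT against Sham WT with 1 surrogate variable. In the CCN family list, 1 gene was called in TAC KO against TAC WT with DESeq2 or limma voom. In each list and comparison, up to 6 called genes with the smallest p were also recomputed. Those outside the members gave 56 results. Of their recomputed values, 1124 kept their call and 52 lost it, and none changed sign. Not all of these genes are named in the text, and Map4k1 is not among them. No paired analysis was possible because the labels give no replicate numbers. At this depth and with 4 libraries a group, precision is given by the intervals in the text.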
